A study of Mus musculus with 2 samples.

Results

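The HoxB cluster of the mouse was described by its accessible chromatin, measured with DNase-seq in whole embryos. Its members were the 10 genes Hoxb1, Hoxb2, Hoxb3, Hoxb4, Hoxb5, Hoxb6, Hoxb7, Hoxb8, Hoxb9 and Hoxb13, chosen by symbol from the GENCODE M21 annotation, out of the 21755 that code for protein on chromosomes 1 to 19 or X. They lie on chromosome 11 (build mm10) from 96194316, the start of Hoxb13, to 96368256, the end of Hoxb1. All 10 are read from the plus strand, so Hoxb13 is at the 5' end and Hoxb1 at the 3' end. With 100 kb on either side the region spans 374 kb (chr11:96094316-96468256). The rule that selects members and region uses annotation and no measured value. The members were, however, chosen with earlier results of these data known.

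DNase I cuts DNA where nucleosomes leave it exposed, and the cut ends are sequenced. The study holds 1 group with 2 biological replicates, each a pool of male and female B6NCrl embryos of 11 days, with separate sample entries and a shared donor entry. No genotype, treatment or other stage was compared, and the labels name no deletion, transgene or agent for either library. A whole embryo mixes all its tissues and has no defining marker genes of its own, so the label was not checked against markers. In such a mixture, fewer cells with an open site and less opening per cell cannot be told apart. The labels do not say whether the pools differ in litter or exact stage.

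Hox genes encode homeodomain transcription factors that give segments along the body axis their identity. Within a cluster the genes at the 3' end are used earlier and further forward, in the hindbrain, and those at the 5' end later and further back, in the trunk and tail. Retinoic acid made by the mesoderm switches on the 3' HoxB genes of the mouse through response elements in and beside the cluster, and CDX factors drive the central and posterior genes. Polycomb proteins keep the clusters silent where they are not used.

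Each replicate has a list of peaks, sites of 150 bp with a score of 1 to 150, and a list of hotspots, broader stretches of enriched cutting with a −log10 q value that ends at 100. Replicate 1 has 204697 peaks and 179603 hotspots, and replicate 2 has 231103 peaks and 197152 hotspots. The HoxB region held 167 peaks of replicate 1 and 172 of replicate 2, with 126 and 129 hotspots, and all of these peaks lay in a hotspot of their own replicate. The files hold intervals and no reads, so the depth of both libraries is unknown. How the score was built is not given, so it is printed as deposited and ranked within its own list as a percentile. A peak is called shared when a replicate 1 peak overlaps a replicate 2 peak by at least 1 bp. Pairs of scores below are of replicate 1 and replicate 2. With 1 group of 2 libraries no test between conditions exists, and values are set beside those of the whole lists.

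The sequences of 2 of the 5 best-ranked shared peaks of the region are shown first, from the RefSeq GRCm38.p6 sequence of the plus strand, 5' to 3', with CpG dinucleotides in capitals because these sites were rich in them. They are the peak between Hoxb8 and Hoxb7 (chr11:96285416-96285565) and a peak beyond Hoxb1 (chr11:96407796-96407945).
Hoxb8 to Hoxb7: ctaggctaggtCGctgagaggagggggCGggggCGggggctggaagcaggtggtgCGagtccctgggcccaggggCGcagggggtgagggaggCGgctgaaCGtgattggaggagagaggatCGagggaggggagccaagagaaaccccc
3' flank: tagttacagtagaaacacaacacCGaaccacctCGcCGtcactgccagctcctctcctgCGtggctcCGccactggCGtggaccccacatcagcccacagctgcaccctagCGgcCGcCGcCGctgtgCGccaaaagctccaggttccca
They hold 8 and 11 CpG. The median over the 136 shared peaks of the region was 5 CpG and a GC content of 55.7%, against 3 CpG and 52.7% over the 162472 shared peaks of the assembled chromosomes.

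Every HoxB gene had a promoter peak at 1 start site or more. A promoter peak, a peak within 500 bp of any annotated transcription start site in both replicates, was found for 10 of 10 members, against 70.3% of all protein-coding genes. Of the 21 annotated start sites of the members, 18 had a peak within 500 bp in both replicates. The 3 without one were the 2 start sites of Hoxb3 furthest upstream and an internal start site of Hoxb7. The share of start sites with such a peak over all genes was not computed. The members' promoter peaks ranked high within the lists but not among promoters. Their best promoter peaks had a median percentile of 90.2, while the 15296 genes with a shared promoter peak had a median of 96.1 and quartiles of 91.1 and 98.2. No member (0 of 10) was above that median.

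**Figure D1:**
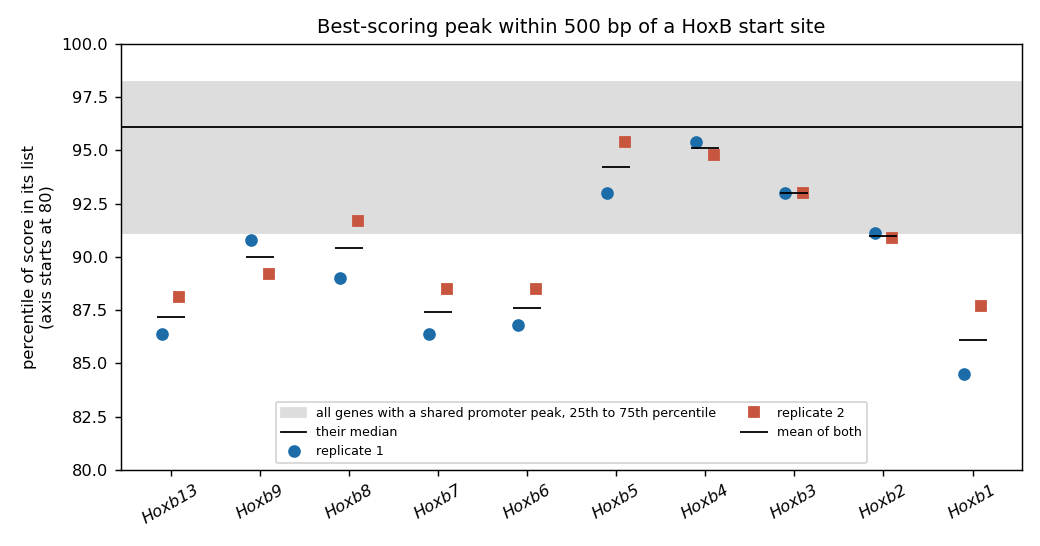
Percentile of the best-scoring peak within 500 bp of a start site of each HoxB gene, in the order of the chromosome, for replicate 1 (circles) and replicate 2 (squares), with the mean of both as a short line. The band spans the 25th to 75th percentile of all genes with a shared promoter peak and the long line is their median of 96.1. All members lie below that line, with Hoxb4 and Hoxb5 nearest to it.

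Hoxb1 and Hoxb2 are the members used furthest forward. Hoxb1, which specifies the fourth rhombomere of the hindbrain, had a best promoter score of 84 in replicate 1 and 98 in replicate 2 (mean percentile 86.1 ± 2.25, SD, n = 2). That peak ended 7 bp before the start site in both replicates, and the start site lay in a hotspot of 1144 bp and 1083 bp. Hoxb1 ranked lowest of the 10 promoters. Hoxb2, which acts in hindbrain segments and facial motor neurons, scored 102 and 107 (91.0 ± 0.161). Within 5 kb of the 5'-most start site, Hoxb2 had the most shared peaks of the members. It had 17, where the 10 members had a median of 7. Over all 21755 genes the median was 2 and the 99th percentile 10. The window of Hoxb2 reaches into the Hoxb3 gene. The count of Hoxb3 itself is anchored on a start site with no peak within 500 bp, away from the dense part of that gene.

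Hoxb3, Hoxb4 and Hoxb5 belong to paralog groups of the hindbrain, neck and upper trunk. Hoxb4, also known for its effect on the self-renewal of blood stem cells, scored 122 and 123 (95.1 ± 0.407) and Hoxb5, which takes part in gut innervation and limb position, scored 110 and 126 (94.2 ± 1.70). These were the members with the best-ranked promoter peaks. The Hoxb4 start site itself lay in no hotspot of either replicate. Its nearest peaks ended 82 bp and 102 bp upstream, and its best one was inside the gene at chr11:96318556-96318705. Hoxb3 scored 110 and 115 (93.0 ± 0.0371), and the score belonged to the downstream start sites. At 96340945 a peak covered the start site in both replicates, inside hotspots of 2424 bp and 2417 bp. The start site furthest upstream, at 96323326, had its nearest peaks 950 bp and 930 bp downstream, and the one at 96328062 had them 1837 bp and 1877 bp upstream.

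The central genes Hoxb6, Hoxb7 and Hoxb8 pattern the trunk. Hoxb8, known also for its use in microglia and in grooming behaviour of mice, scored 95 and 110 (90.4 ± 1.94). Hoxb7 scored 88 and 100 (87.4 ± 1.49), and Hoxb6 scored 89 and 100 (87.6 ± 1.19). Peaks covered the 5'-most start site of Hoxb6 and of Hoxb7 in both libraries. The hotspot over that Hoxb6 start site was 246 bp wide with a −log10 q of 100 in replicate 1, and 201 bp wide with a −log10 q of 3.21 in replicate 2. Among hotspots of the region that overlap between replicates, no value lay between 6.0 and the ceiling of 100. The size of such a difference therefore cannot be read.

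Hoxb8 has 3 annotated start sites, and the libraries differed at the one furthest upstream. At 96281905 the nearest peak of replicate 1 was 451 bp downstream, while replicate 2 had one 120 bp upstream, with a score of 62, that replicate 1 lacked. A hotspot of 1135 bp covered that start site in replicate 2 and none did in replicate 1. The 250 bases before it (chr11:96281655-96281904, RefSeq GRCm38.p6, plus strand) are shown because that replicate 2 peak reaches into them. Capitals mark TTTATG and TTTATTG, the core letters of CDX sites, with TATAAA and TGATNNAT, on either strand.
Hoxb8 upstream: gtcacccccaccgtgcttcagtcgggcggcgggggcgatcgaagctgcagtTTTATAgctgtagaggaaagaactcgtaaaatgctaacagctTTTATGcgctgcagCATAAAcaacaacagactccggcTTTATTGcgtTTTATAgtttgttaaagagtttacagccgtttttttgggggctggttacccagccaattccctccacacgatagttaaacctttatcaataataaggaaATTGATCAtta
The stretch holds 6 such matches. TTTATG occurs in 11.9% and TATAAA in 13.6% of the 32851 RefSeq promoter windows, which run from 250 bases before to 50 after a start, and TTTATTG in 4.60% and TGATNNAT in 8.85%. Of the 10 members 3 were in that table, namely Hoxb8, Hoxb4 and Hoxb1. The same search of the 250 bases before the start gave 0 matches for Hoxb4 and 1 for Hoxb1.

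The posterior members are Hoxb9, which patterns the thoracic skeleton with its paralogs, and Hoxb13, which acts in tail and prostate. Hoxb9 scored 101 and 102 (90.0 ± 1.14), and Hoxb13 scored 88 and 99 (87.2 ± 1.21). A single peak covered the Hoxb13 start site in each library, and no further peak lay inside the gene. At Hoxb9 the score came from a peak upstream of the gene, and the libraries differed inside it. Replicate 1 had 5 peaks in the gene and a hotspot of 2215 bp over both start sites, while replicate 2 had 1 peak in the gene and no hotspot over a start site.

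In order of mean percentile the promoters ran Hoxb4, Hoxb5, Hoxb3, Hoxb2, Hoxb8, Hoxb9, Hoxb6, Hoxb7, Hoxb13, Hoxb1. Between neighbours in this order, only Hoxb3 and Hoxb2, and Hoxb9 and Hoxb6, were further apart than the SDs of both. The best score was higher in replicate 2 for 10 of 10 members. Scores were also higher there for 129 of the 136 shared peaks of the region. The median scores of the whole lists were 45 in replicate 1 and 50 in replicate 2. By percentile Hoxb9, Hoxb4 and Hoxb2 were higher in replicate 1. At Hoxb8, Hoxb6 and Hoxb3 the best peak was not the same peak in both replicates: at Hoxb6 it lay at the 5'-most start site in replicate 1 and at the other start site, 96299171, in replicate 2. A start site inside hotspots of both replicates was found for 8 of 10 members, the exceptions being Hoxb9 and Hoxb4. The share of all genes with such a start site was not computed.

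The stretch from Hoxb9 to Hoxb1 was among the places of the genome most densely filled with peaks. It held 81 peaks of replicate 1 and 72 of replicate 2, of which 67 were shared, or 69.2 per 100 kb. The assembled chromosomes had 6.35 shared peaks per 100 kb, so the stretch was 10.9-fold above them. Cut into 25603 windows of 100 kb, the genome had a median of 5 shared peaks per window, a 99th percentile of 26 and a maximum of 68, and 1 window reached the count of this 96.8 kb stretch. The ends of the stretch were set by its genes and those of the windows were not. A window can therefore split a dense place, and the counts are not fully alike. Peaks of both replicates covered 8.23% of its bases, against 0.799% of the genome. Its shared peaks had a median percentile of 84.1, against 60.2 for all shared peaks. Of the 67, 42 were at or above the 80th percentile, a cut for which the share of all shared peaks was not computed.

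**Figure D2:**
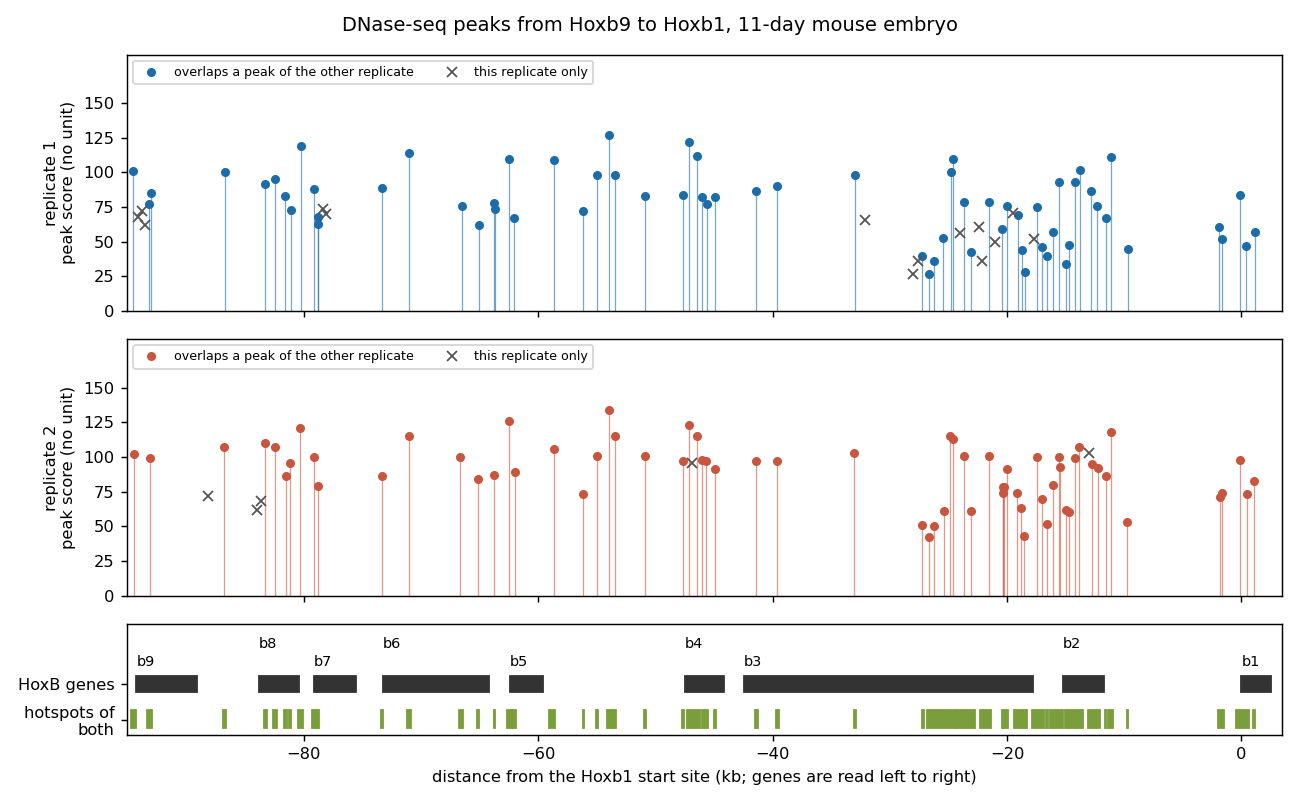
Scores of all peaks from just before Hoxb9 to Hoxb1 against their distance from the Hoxb1 start site in kb, for replicate 1 (top) and replicate 2 (middle), with the HoxB genes and the stretches inside hotspots of both replicates below. Circles on stems overlap a peak of the other replicate, and crosses are found in 1 replicate only. Peaks crowd around the downstream start sites of Hoxb3 and around Hoxb2, and crosses are more frequent in replicate 1 (14) than in replicate 2 (5).

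Hotspots of both replicates covered 11.9% of the whole HoxB region, against 2.11% of the genome, a 5.66-fold difference. In the region 36.5% and 37.2% of the hotspots were at the ceiling, against 33.3% and 34.1% of the whole lists. Peak density varied along the cluster. The Hoxb2 gene held 6 shared peaks and the 2.59 kb between Hoxb3 and Hoxb2 held 5, and hotspots of both replicates covered 69.6% of Hoxb2 and 89.1% of that interval. Hoxb3 contained 17 shared peaks over its 24.6 kb. The 1.69 kb between Hoxb4 and Hoxb3 held no peak of either replicate. The widest intersection of hotspots of both replicates in the region, 2417 bp, covered the Hoxb3 start site at 96340945 and held 5 shared peaks. The next, of 1611 bp, was also inside Hoxb3, and the others of the widest 5 were 1373 bp in the space before Hoxb9, 1150 bp over a Hoxb2 start site and 1074 bp over both Hoxb1 start sites. The widest hotspot of replicate 1 was 3968 bp over the Hoxb3 start site at 96343769, where that of replicate 2 was 922 bp. In replicate 2 the widest was 3269 bp, between Hoxb13 and Hoxb9 (chr11:96262209-96265477), and it contained Mir196a-1.

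Hoxb13 is set apart from the rest of the cluster by 74.0 kb, and this gap was unequally filled. It held 41 peaks of replicate 1 and 48 of replicate 2, of which 31 were shared (41.9 per 100 kb). A boundary placed at the start of Gm53, a long noncoding RNA gene, was chosen after the values were seen. On the Hoxb9 side of it, 20.4 kb held 23 shared peaks (113 per 100 kb), and on the Hoxb13 side 53.7 kb held 8 (14.9 per 100 kb). The shared peaks of the dense side had a median percentile of 51.1, below the 84.1 from Hoxb9 to Hoxb1. Of the 136 shared peaks of the region, 10 were below the 25th percentile, against 13.2% of all shared peaks, and 9 of these 10 lay in the gap. Hotspots covered 48.3% of the dense side in replicate 1 and 74.6% in replicate 2. The flanks beyond Hoxb13 and Hoxb1 had 18.0 and 20.0 shared peaks per 100 kb.

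**Figure D3:**
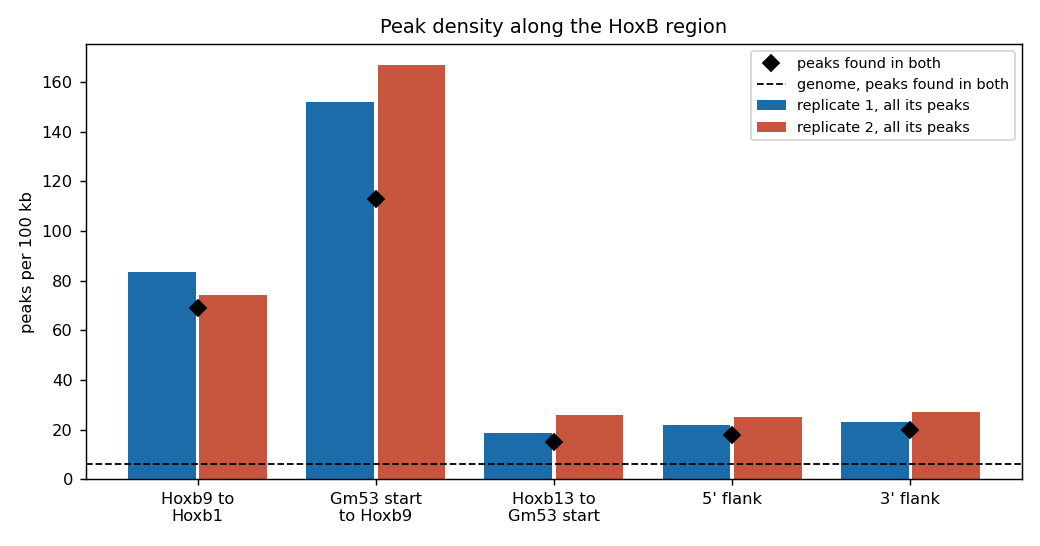
Peaks per 100 kb in 5 stretches of the HoxB region, for all peaks of replicate 1 and of replicate 2 (bars) and for shared peaks (diamonds), with the genome's shared density as a dashed line. The stretch from Hoxb9 to Hoxb1 and the stretch from the Gm53 start to Hoxb9 stand above the 3 others, and all 5 lie above the dashed line at 6.35.

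**Figure D4:**
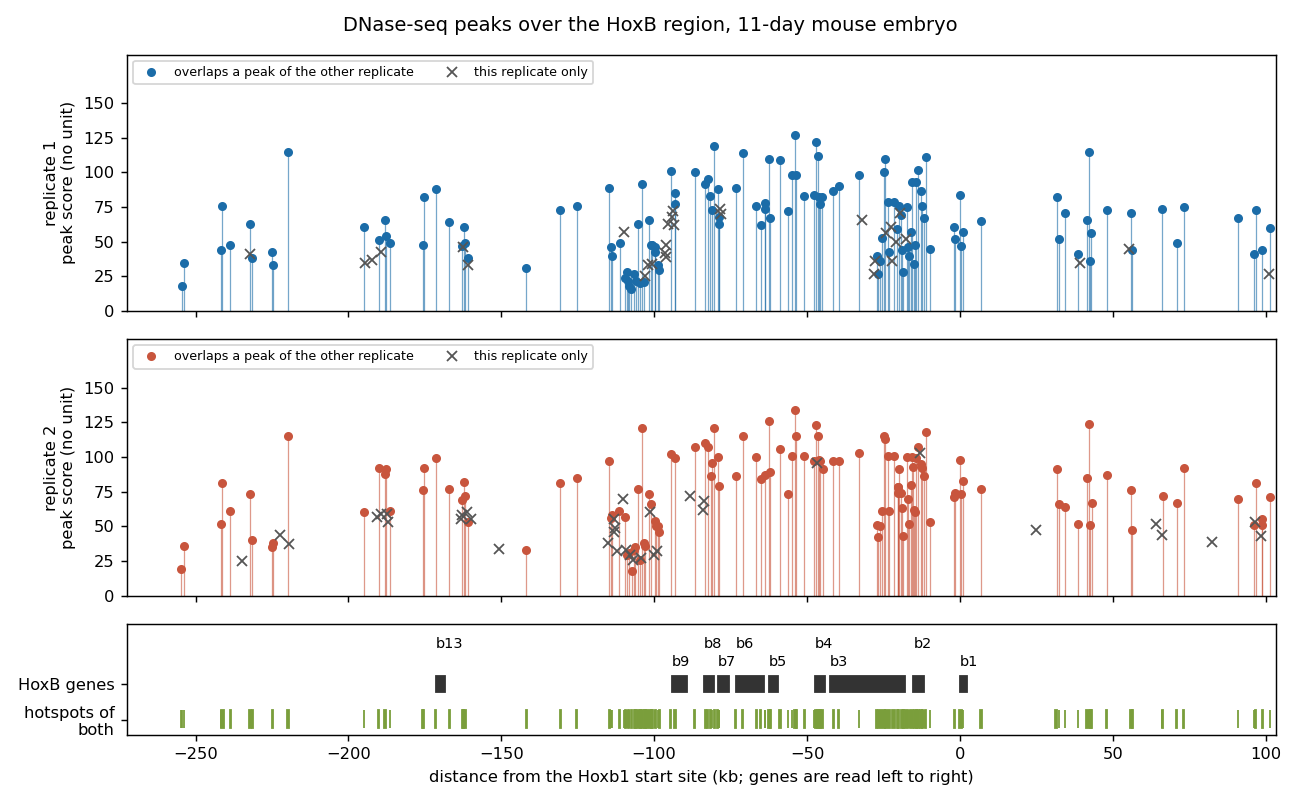
Scores of all peaks over the 374 kb of the HoxB region against distance from the Hoxb1 start site in kb, for replicate 1 (top) and replicate 2 (middle), with the genes (b1 to b13) and hotspots of both replicates below. Circles on stems overlap a peak of the other replicate, and crosses do not. Scores in the stretch before Hoxb9 stay mostly below those from Hoxb9 to Hoxb1, and the longest stretch with no peak is in the 5' flank.

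The best-ranked peaks of the region were mostly not at start sites, and neither were its shared peaks as a whole. Of the 10 best, 3 lay within 500 bp of a protein-coding start site, beside 25 of all 136 shared peaks. The best of all, in the interval between Hoxb5 and Hoxb4, scored 127 and 134 (percentile 96.8). The peak between Hoxb8 and Hoxb7, whose sequence is shown above, scored 119 and 121, and a peak in an intron of Hoxb6 scored 114 and 115. Outside the HoxB genes, a peak 41612 bp past the downstream Hoxb1 start site scored 115 and 124, and a peak in an intron of Ttll6, a tubulin-modifying enzyme in the 5' flank, scored 115 in both. The best shared peak inside a gene scored 95 and 107 in Hoxb8, 85 and 99 in Hoxb9, 68 and 79 in Hoxb7, 67 and 89 in Hoxb5, and 57 and 83 in Hoxb1. Between Hoxb3 and Hoxb2 it scored 93 and 100. Of the 136 shared peaks, 17 (12.5%) were at or above the 90th percentile, against 12.9% of all shared peaks. By midpoint 13 were in coding exons, 10 in UTRs, 15 in noncoding exons, 43 in introns and 55 between genes. More than 1 kb from every protein-coding start site were 76.5% of them. The longest stretches without a peak of either replicate were 24.2 kb in the 5' flank, 17.9 kb in the 3' flank, 11.9 kb in the 5' flank and 10.9 kb within the gap.

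Noncoding genes inside the cluster were accessible to different degrees. The antisense genes Hoxb5os and Hoxb3os had promoter peaks of 109 and 106, and of 111 and 118, in replicates 1 and 2. Gm53 had 92 and 121, and the antisense gene Gm11536 had 79 and 101. DNase-seq does not tell the strand, so a peak near start sites of both strands belongs to neither in particular. Mir196a-1, whose microRNA represses Hox mRNAs including Hoxb8, had weaker peaks of 48 and 66. Mir10a, upstream of Hoxb4, had none within 500 bp, and its nearest peaks were 871 bp and 851 bp away. Their mature products are shown, from RefSeq, with the seed (bases 2 to 8) in capitals, because both genes lie among the members and have different seeds.
miR-196a-5p: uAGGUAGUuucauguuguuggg
miR-10a-5p: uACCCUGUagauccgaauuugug
The flanking protein-coding genes had lower scores than any member. Calcoco2, whose human counterpart is an autophagy receptor, had 35 and 36, Skap1, a T cell adaptor, had 44 and 55, and Ttll6 had 63 and 73.

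Motif letters were searched on both strands of the 136 shared peaks and of all 162472, in their replicate 1 windows. A match is a description of letters, not a bound site. The retinoic acid receptor motif AGGTCA was in 6 peaks of the region (4.41%, Wilson 95% interval 2.04 to 9.29), against 11.4% of all shared peaks. Its direct repeat with a spacer of 5 bases, named DR5, was in 0 of 136, which allows up to 2.75% by the same interval, against 0.201% of all. The replicate 2 windows are the 136 replicate 2 peaks of the region that overlap a replicate 1 peak. They can lie shifted, and some pair with the same replicate 1 peak. In them DR5 was in 1 of 136, in the 3' flank at chr11:96372656-96372805 (score 77). The DR2 repeat, with a shorter spacer, was in 1, within Calcoco2. TTTATG was in 11 (8.09%, 4.58 to 13.9), against 6.27%, and TTTATTG in 3 (2.21%), against 1.76%. For PBX and HOX dimers, TGATNNAT was in 7 (5.15%), against 5.99%, and the stricter TGATTGAT, whose matches TGATNNAT includes, was in 1, in the coding exon of Hoxb2. The MEIS motif TGACAG was in 12 (8.82%), against 13.0%, and the homeodomain letters TAATTA in 1 (0.735%), against 2.80%. The core motif of CTCF, a protein that organises chromosome loops, was in 2 (1.47%), against 4.57%. The GATA letters AGATAA were in 2, against 4.64%, the SOX and TCF letters ACAATG in 5 (3.68%), against 7.30%, and ACAAAG in 10 (7.35%), against 13.1%. The EGR motif GCGTGGGCG was in 1, against 0.169%, and TATAAA in 6 (4.41%), against 4.38%. The replicate 2 windows, searched after the data were seen, gave other counts for several motifs, such as 11 of 136 for AGGTCA, 15 for TTTATG, 8 for TGATNNAT, 14 for TGACAG, 4 for TAATTA, 5 for AGATAA and 3 for ACAATG. The region's peaks were richer in GC, as given above, and the part of base composition in these shares was not tested.

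Peaks that held such letters at named places are shown with the match in capitals, plus strand, RefSeq GRCm38.p6. The peak between Hoxb9 and Hoxb8 (chr11:96278916-96279065, scores 100 and 107) holds a CTCF core. The peak just upstream of Hoxb1 (chr11:96365596-96365745, scores 84 and 98) holds TGATNNAT, and HOX and PBX proteins are known to bind upstream of this gene in the mouse. The peak upstream of Hoxb9 (chr11:96271096-96271245, scores 101 and 102) holds TTTATG on the minus strand, so the plus strand reads as its reverse complement.
Hoxb9 to Hoxb8: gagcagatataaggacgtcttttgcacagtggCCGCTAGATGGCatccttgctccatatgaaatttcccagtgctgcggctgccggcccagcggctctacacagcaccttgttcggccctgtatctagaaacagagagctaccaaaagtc
Hoxb1 start: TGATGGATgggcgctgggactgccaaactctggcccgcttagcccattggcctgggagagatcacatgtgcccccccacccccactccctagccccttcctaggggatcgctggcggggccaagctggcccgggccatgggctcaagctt
Hoxb9 start: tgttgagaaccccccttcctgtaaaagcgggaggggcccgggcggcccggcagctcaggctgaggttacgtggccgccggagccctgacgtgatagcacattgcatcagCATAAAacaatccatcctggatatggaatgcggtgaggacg

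The libraries matched over most of the region. Of the replicate 1 peaks, 136 of 167 were shared (81.4%, Wilson 95% interval 74.9 to 86.6), beside 79.5% over the whole list. In the other direction 136 of 172 were (79.1%, 72.4 to 84.5), beside 70.3%. From Hoxb9 to Hoxb1 the shares were 82.7% (73.1 to 89.4) and 93.1% (84.8 to 97.0). These intervals cover counting error only. Over the 136 shared peaks the replicate scores had a Spearman correlation of 0.953, with peaks as points that share both libraries, beside 0.939 over all shared peaks. Peaks found in 1 library only scored lower, with medians of 45 in replicate 1 and 50.5 in replicate 2, against 65.5 and 77.5 for shared ones.

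From Hoxb9 to Hoxb1, replicate 1 had more peaks than replicate 2, against the direction of the whole lists. The ratio of replicate 2 to replicate 1 peaks was 0.889 there, 1.28 in HoxA, 1.84 in HoxC, 1.92 in HoxD and 1.13 over the whole lists. The other clusters were measured with group 13 included. With Hoxb13 and its gap included, HoxB had 122 and 120 peaks, a ratio of 0.984, and in the gap alone the ratio was 1.17. Of the 14 peaks found in replicate 1 only, 8 lay in Hoxb3, 3 in Hoxb9, 2 in Hoxb7 and 1 between Hoxb3 and Hoxb2. The 5 found in replicate 2 only included 1 of score 103 in Hoxb2 and 1 of score 96 in Hoxb4, both inside hotspots of replicate 1. With 1 library on each side, the embryos, the library and the depth cannot be told apart.

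**Figure D5:**
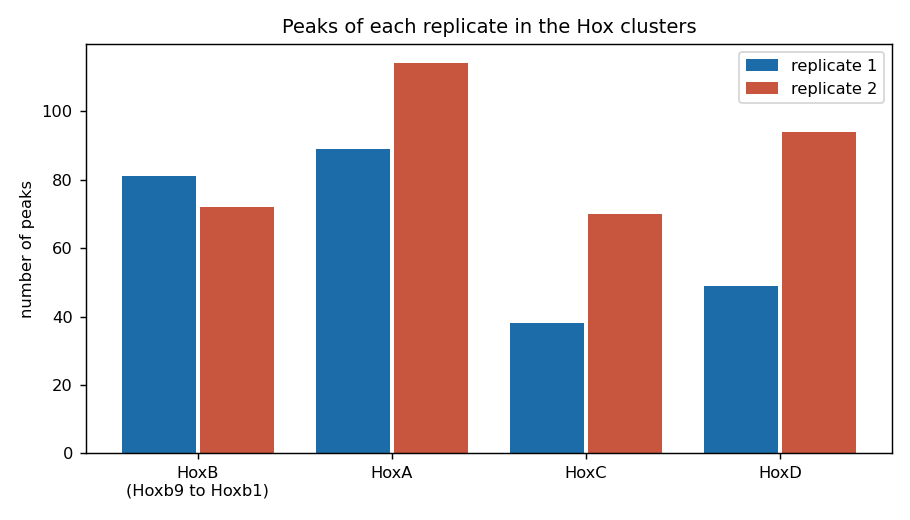
Number of peaks of replicate 1 and of replicate 2 in the HoxB cluster from Hoxb9 to Hoxb1 and in the HoxA, HoxC and HoxD clusters. Replicate 1 has the taller bar in HoxB (81 against 72) and replicate 2 in the 3 others. The other clusters include group 13. From Hoxb13 to Hoxb1, which is not drawn, the counts are 122 and 120.

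Against the other clusters, the place of HoxB in order of density depended on whether Hoxb13 and its gap were counted. Shared peaks per 100 kb were 69.2 from Hoxb9 to Hoxb1, and 63.6 in HoxA, 25.1 in HoxC and 40.3 in HoxD. Hotspots of both replicates covered 22.9%, against 25.5%, 6.78% and 15.2%. The median percentile of shared peaks was 84.1, against 84.1, 82.4 and 85.4. The other clusters were measured from their first to their last gene, group 13 included. From Hoxb13 to Hoxb1, HoxB had 56.3 shared peaks per 100 kb, hotspot cover of 18.4% and a median percentile of 77.2, below HoxA in all 3 and below every other cluster in the last. Promoter peaks in both replicates were found for 10 of 10 HoxB genes and 25 of the 29 other Hox genes, those without being Hoxa11, Hoxc9, Hoxc11 and Hoxd12. The median percentile of the best promoter peak was 90.2 for HoxB and 91.4 for the other Hox genes. Within 5 kb of the 5'-most start site the median count of shared peaks was 7 for HoxB genes, and 9 in HoxA, 3 in HoxC and 3 in HoxD. Among paralogs, Hoxb2 (17) stood beside Hoxa2 (13), the only other gene of its group, Hoxb5 (7) lay between Hoxa5 (14) and Hoxc5 (3), Hoxb13 (4) equalled Hoxd13 (4), and Hoxb1 (5) was above Hoxd1 (3).

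Among genes known to regulate HoxB in the mouse, 29 of 33 had a promoter peak in both replicates, against 70.3% of all protein-coding genes. Their best promoter peaks had a median percentile of 96.9, beside 90.2 for the HoxB members and 96.1 for all genes with a shared promoter peak. The retinoic acid receptor genes Rara, Rarb and Rarg scored 141 and 135, 127 and 135, and 110 and 115. Their partners Rxra and Rxrb scored 116 and 127, and 130 and 137. Cdx4 had low scores of 35 and 37 (percentile 29.4), Cdx2 had a peak in replicate 1 only (54), and Cdx1 had none. Wnt3a, a ligand of the tail bud, had one in replicate 2 only (51), and Cyp26c1, an enzyme that breaks down retinoic acid, had none.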

How the data were processed

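Peaks and hotspots of DNase-seq in whole 11-day mouse embryos were used, with lists from 2 biological replicates. Per the file headers and accompanying notes, the authors made each list from mm10 alignments of a single replicate, with no pooling. Which aligner and caller were used, with what settings, is not stated there. The deposited peak score is a whole number whose construction is not given, and a percentile within its own list was used for every ranking. The deposited hotspot value is, by its file format, the −log10 of a q value, and it ends at 100. Sites at that ceiling cannot be ranked.

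Gene positions came from GENCODE M21 and sequences from RefSeq GRCm38.p6, which is the build of the files. Overlaps, percentiles and motif searches were computed with Python 3.11.15, numpy 2.4.6, pandas 2.3.3 and pysam 0.24.0, and figures with matplotlib 3.10.9. The overlap and counting steps were tested on simulated data. Promoter peaks are those within 500 bp of any annotated start site of a gene, and a gene counts where both replicates have one. Peaks were assigned to stretches by their midpoint. Motif shares use the replicate 1 windows of shared peaks. The text names all 10 members, neighbouring genes of the region, the best-ranked peaks of each interval and of the region, the 5 widest hotspot intersections, and in the lists of other Hox genes and of regulators those without a shared promoter peak and up to 6 with one in list order, with paralogs for the peak counts. The members and lists were chosen with earlier results of these data known. Fold and ratio values compare counts of peaks, not signal. Some sequences and a gene of another cluster that these rules select are not reported here.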

Additional observations from a re-analysis of the deposited data

How the results depend on the processing

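Of 40 alternative values, 29 stayed within the limits set for a change, 11 moved and 0 reversed. The causes were not tested, apart from lists that a stricter rule shortens by construction. The limits differed between results, so the tally is no common measure of change. With the better-scoring 50% of each list, 102 shared peaks against 136 counted as the same. A median percentile of 90.0 against 90.2, without replicate 1, counted as moved. Asking for an overlap of at least 75 bp gave a shared percent of 73.1 in the region, against 81.4. Keeping the better-scoring 50% of each list gave 61.0 shared peaks per 100 kb from Hoxb9 to Hoxb1, against 69.2, and 16 between Hoxb13 and Hoxb9, against 31. Hotspots at the highest value alone covered 6.29% of the region, against 11.9%. With the peak nearest to the 5'-most start site, the members' median percentile was 86.0, against 90.2. With 1 list alone, which drops the demand for sharing, the density ranged from 74.4 to 83.7 per 100 kb, the gap from 41 to 48 peaks, the hotspot cover from 15.0% to 16.2% and the percentile from 89.9 to 90.0. The number of members with a promoter peak was 10 of 10 with windows of 250 bp and 1000 bp. With the 5'-most start site alone it was 9, where Hoxb3 was lost. The share of all protein-coding genes with a promoter peak at these settings is not given here. Whether these member counts stand out from all genes therefore cannot be told. In a setting chosen after seeing the data, 62 of the shared replicate 2 peaks of the region held at least 1 of the 15 motifs. Of the shared replicate 1 peaks, 51 did. No paired analysis was possible because there is 1 group. A depth that is unknown limits what an absent peak means, and 2 libraries give no estimate of variation between embryos beyond their difference.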
